A study of Mus musculus with 8 samples.

Results

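NF-κB is a family of dimeric transcription factors, and the 10 genes described here are 4 of its subunits (Nfkb1, Nfkb2, Rela and Relb), 2 of its inhibitors (Nfkbia and Tnfaip3), the survival gene Birc3 and 3 inflammatory chemokine genes (Cxcl1, Ccl2 and Cxcl10). They were taken as a list of mouse symbols and matched by gene identifier to the 23403 genes of the RNA-seq count table, where all 10 were present. The study asked how hexavalent chromium, Cr(VI), given as potassium chromate, changes chromatin and gene expression in Hepa-1c1c7 (Hepa-1) cells, an established mouse hepatoma line. RNA-seq compared 2 libraries of cells exposed to 25 µM Cr(VI) for 90 minutes with 2 libraries of control cells. FAIRE-seq, which sequences the DNA left in the aqueous phase after crosslinking and phenol extraction, compared 1 library of cells given 25 µM for 90 minutes with 1 control, and 1 library of cells kept in 0.5 µM for 20 passages with 1 control passaged as often without chromium. The labels of the control RNA libraries do not say whether those cells were passaged, and nothing states that libraries came from separate cultures, so p-values measure only the spread between these libraries. The RNA-seq analysed here covers the acute exposure and not the long-term one.

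In resting cells NF-κB dimers are held in the cytoplasm by inhibitor proteins such as IκBα, the product of Nfkbia. Signals from receptors for TNF, IL-1 or microbial products activate the IKK kinases, the inhibitor is degraded, and the dimers enter the nucleus and bind κB sites. Among the first genes they switch on are their own inhibitors, Nfkbia and Tnfaip3, and in liver cells the pathway is known for survival signals and for the acute-phase and chemokine response.

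The κB sites themselves are shown first, and the RNA values of the genes that carry them follow below. RefSeq promoter windows (GRCm38.p6, the mm10 build, from 250 bases before to 50 bases after a start) were matched for 7 of the 10 genes, and not for Nfkb1, Relb and Ccl2. Both strands were searched for the κB consensus and for the AP-1 motif TGANTCA. A match to the κB consensus was found for 5 of the 7 genes, namely Nfkb2, Nfkbia, Tnfaip3, Cxcl1 and Cxcl10, beside 5.14% of the 27025 genes with a window in the table. The AP-1 motif was found for 3 of the 7, Nfkb2, Tnfaip3 and Cxcl10, beside 8.97% of those genes. Rela and Birc3 had a window without either. These matches are letters in a window and were not measured as binding sites.

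The stretches holding the matches are printed in the direction of the gene, with the κB and AP-1 matches in capitals, and all lie upstream of the start they were counted from. They come from chr12:55492655-55492688 (minus strand, Nfkbia), chr10:19015411-19015558 (minus, Tnfaip3), chr5:90891162-90891196 (plus, Cxcl1), chr5:92348945-92349060 (minus, Cxcl10) and chr19:46304688-46304717 (plus, Nfkb2).
Nfkbia: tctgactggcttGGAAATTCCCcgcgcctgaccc
Tnfaip3: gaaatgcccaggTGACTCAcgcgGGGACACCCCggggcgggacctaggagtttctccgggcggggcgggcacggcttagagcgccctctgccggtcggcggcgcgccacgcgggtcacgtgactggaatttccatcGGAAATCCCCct
Cxcl1: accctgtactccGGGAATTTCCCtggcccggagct
Cxcl10: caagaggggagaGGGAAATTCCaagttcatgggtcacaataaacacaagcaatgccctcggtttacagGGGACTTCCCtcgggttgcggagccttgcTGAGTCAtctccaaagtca
Nfkb2: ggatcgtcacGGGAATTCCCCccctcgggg

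Nfkbia held 1 match from base -29 to base -20 relative to its start. Tnfaip3 held 2, at -125 to -116 and at -12 to -3, with the AP-1 motif just upstream of the first. Cxcl10 also held 2, at -159 to -150 and at -103 to -94, followed by an AP-1 motif. In Cxcl1 and in the stretch of Nfkb2 the capitals are longer than a single match because the same site matched on both strands with a shift of 1 base. The stretch of Nfkb2 belongs to a start inside the gene and lies in an exon of another Nfkb2 transcript, and the other matches of Nfkb2 are not printed. The same kind of site thus stood upstream of both inhibitor genes, which rose after Cr(VI). It also stood upstream of Nfkb2 and Cxcl10, whose log2 fold changes of 0.39 and 0.33 did not pass the test described below. Cxcl1, the only carrier with a negative value, was lower in both treated libraries without passing the test, and those libraries were 2.55-fold apart.

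After 90 minutes of 25 µM Cr(VI), Nfkbia, Tnfaip3 and Relb rose about 2-fold (1.93-fold to 2.12-fold), and none of the 10 genes fell past the threshold. Rela and Birc3 were 1.58-fold and 1.54-fold higher without passing it. The chemokine genes Cxcl1 and Ccl2 were lower in both treated libraries, at 0.422 and 0.526 of the control level, and did not pass the threshold either. Nfkb1 and Cxcl10 overlapped between the groups. The test was edgeR's quasi-likelihood test over 13619 genes with Benjamini-Hochberg adjustment and a threshold of 0.05, and all 10 genes passed its filter on low counts. Of all tested genes 1.78% were called higher and 2.85% lower, so the 3 of 10 called higher and 0 of 10 called lower are read against those shares. The treated libraries lay entirely above or below the controls for 8 of the 10 genes, beside 66.3% of all tested genes, and an unadjusted p under 0.05 was reached by 7 of the 10, beside 30.7% of all tested genes. The median log2 fold change was 0.51 over the 10 genes and -0.0047 over all tested genes. The 10 genes were chosen with earlier results of these data known, so these comparisons do not test them as a set.

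With DESeq2 on the same counts, 5 of the 10 genes were called higher (Relb, Nfkbia, Tnfaip3, Rela and Birc3) and 2 lower (Cxcl1 and Ccl2), where 7.76% and 7.46% of all tested genes were called higher and lower. The calls therefore depended on the tool for Rela, Birc3, Cxcl1 and Ccl2, while the direction of each gene did not.

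Depth was similar across libraries, with totals between 32319676 and 37696116 counts, and levels are given as CPM (a library's counts scaled to a common depth, with TMM normalization). The control pair was much closer than the treated pair: 4 genes were more than 2-fold apart in the former and 875 in the latter. The controls still differed beyond counting noise (chi-square per degree of freedom 2.15, against 123 for the treated pair) and were counted as 2 replicates. That difference does not show that they came from separate cultures. An exact permutation test of a single gene cannot give a two-sided p below 0.333 with 2 libraries against 2. The hepatoma markers Alb, Afp, Krt8 and Krt18 had at least 4376 counts in every library, while Hnf4a and Serpina1a had at most 24 and Apoa1 and H19 at most 13.

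**Figure D1:**
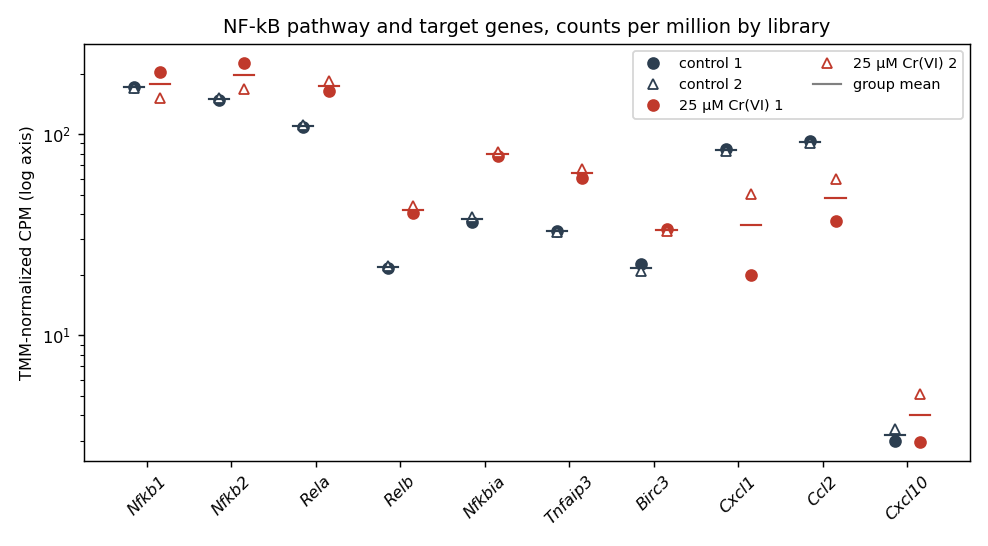
TMM-normalized CPM of the 10 genes (log axis) in each of the 4 RNA-seq libraries, with the mean of each group as a bar. The treated libraries of Nfkbia, at 78.3 and 81.6 CPM, sit well above the controls at 36.7 and 38.7 CPM, while those of Cxcl1 are spread from 19.8 to 50.6 CPM below controls at 84.3 and 82.4 CPM.

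Levels can be compared between genes only per length of exon, as RPKM (CPM divided by the exon length in kilobases, computed here from the counts). In control cells Ccl2 stood highest at a mean of 113.5 RPKM, followed by Cxcl1 at 87.3 RPKM. Rela (37.7 and 38.8 RPKM) and Nfkb1 (37.6 and 37.3 RPKM) were nearly level, as were Relb (7.31 and 7.54 RPKM) and Tnfaip3 (6.84 and 6.82 RPKM). Nfkbia stood at 23.9 RPKM, Nfkb2 at 20.4 RPKM, Birc3 at 4.54 RPKM and Cxcl10, the lowest, at 2.92 RPKM. In treated cells the order was less clear, because the libraries of Ccl2 (45.7 and 73.8 RPKM) enclosed those of Rela (57.0 and 64.3 RPKM) and Nfkbia (49.6 and 51.7 RPKM), and Cxcl1 (20.8 and 53.0 RPKM) overlapped Nfkb1 (44.7 and 33.3 RPKM) and Nfkb2 (30.8 and 22.8 RPKM). Relb (13.7 and 14.9 RPKM) and Tnfaip3 (12.6 and 14.0 RPKM) overlapped as well. Ccl2 and Cxcl1 thus stood above every subunit gene in control cells, and both stood below Rela in treated library 1.

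Of the subunits, Relb (chr7:19606217-19629438, minus strand) changed most. It encodes the partner of the Nfkb2 product p52 in the non-canonical branch of the pathway. Relb measured 40.4 and 44.0 CPM in treated libraries 1 and 2, against 21.5 and 22.2 CPM in control libraries 1 and 2. The groups were far apart compared with the spread within either. Its log2 fold change was 0.95 (SE 0.12, adjusted p = 0.0391, edgeR). Over the alternatives that kept all 4 libraries the adjusted p ranged from 0.000394 with DESeq2 to 0.0574 with scaling by library size alone, where the edgeR call was lost. It was also lost by edgeR without control library 1 (0.367) and without control library 2 (0.317).

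Rela (chr19:5637442-5648134, plus strand) encodes p65, the subunit with the main activation domain. It measured 163 and 184 CPM in the treated libraries and 108 and 111 CPM in the controls. Both treated libraries were above both controls. On the log2 scale the difference was 0.66 (SE 0.12, 95% interval 0.35 to 0.98) with an adjusted p of 0.0576 by edgeR, just above the threshold. It was called with DESeq2 (adjusted p = 0.0104). The log2 fold change was 0.76 without treated library 1 and 0.57 without treated library 2, fits in which the lone treated library is assumed to vary like the controls. By edgeR without control library 1 the adjusted p was 0.626, and without control library 2 it was 0.571. Over the alternatives with all 4 libraries the adjusted p ranged from 0.0104 to 0.0651.

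Nfkb2 (chr19:46300994-46312400, plus strand), which encodes the precursor of p52, measured 226 and 168 CPM in the treated libraries and 148 and 152 CPM in the controls. Treated library 1 stood well above the controls and treated library 2 close to them. The fitted log2 fold change was 0.39 (SE 0.18, 95% interval -0.086 to 0.87, adjusted p = 0.219, edgeR). It was 0.17 without treated library 1 and 0.59 without treated library 2. Nfkb2 shares 316 exonic bases with Psd and 1236 with the long non-coding gene 4833438C02Rik, both on the opposite strand, and the strand setting of the counting is not given in the sources used here, so reads of these genes cannot be told apart there. Psd itself gave a log2 fold change of 1.95 (SE 0.32, adjusted p = 0.0517, edgeR), with 1019 and 1541 reads in the treated libraries.

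Nfkb1 (chr3:135584655-135691969, minus strand), which encodes the precursor of p50, overlapped between the groups: 204 and 152 CPM in the treated libraries lay on either side of 171 and 170 CPM in the controls. Its log2 fold change was 0.059 (SE 0.18, 95% interval -0.41 to 0.53, adjusted p = 0.844, edgeR), with an interval that reaches 1.44-fold. It turned to -0.16 without treated library 1, to -0.039 with scaling by library size alone, and was 0.25 without treated library 2. The long non-coding gene Gm46827 on the opposite strand shares 7 exonic bases with it. Across the 4 subunit genes, then, Relb passed the test and the partner precursors Nfkb1 and Nfkb2 did not.

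Nfkbia (chr12:55489409-55492647, minus strand), which encodes IκBα and is a classical early target of NF-κB, showed the largest increase of the 10 genes. It measured 78.3 and 81.6 CPM in the treated libraries and 36.7 and 38.7 CPM in the controls. Library 2 differed from library 1 by a ratio of 1.04 in the treated pair and 1.06 in the control pair, so the groups stood clear of one another. Its log2 fold change was 1.08 (SE 0.11, adjusted p = 0.0317, edgeR), or 2.12-fold with a 95% interval of 1.73 to 2.59. The call held in every alternative that kept all 4 libraries (adjusted p from 5.38e-06 to 0.0447) and was lost without control library 1 (0.196) or control library 2 (0.151).

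Tnfaip3 (chr10:19000910-19015410, minus strand) encodes A20, a ubiquitin-editing enzyme that shuts down signalling upstream of IKK. It measured 60.4 and 67.5 CPM in the treated libraries and 32.9 and 32.8 CPM in the controls. Treated libraries were again clear of the controls. Tnfaip3 rose by a log2 fold change of 0.96 (SE 0.12, adjusted p = 0.0367, edgeR), or 1.95-fold with a 95% interval of 1.56 to 2.43. The adjusted p ran from 0.000177 to 0.0493 over the alternatives with all 4 libraries, and the call was lost without control library 1 (0.288) or control library 2 (0.287).

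Birc3 (chr9:7847468-7873205, minus strand) encodes cIAP2, a ubiquitin ligase that protects cells from TNF-induced death. It measured 33.9 and 33.1 CPM in the treated libraries and 22.5 and 20.9 CPM in the controls. Both treated libraries were above both controls and nearly equal. The difference was 0.63 on the log2 scale (SE 0.13, 95% interval 0.29 to 0.96) and the adjusted p by edgeR was 0.0673. Over the alternatives with all 4 libraries it ranged from 0.0325 (DESeq2) to 0.143 (library size alone). In edgeR fits on 3 libraries the log2 fold change ran from 0.55 to 0.66.

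**Figure D2:**
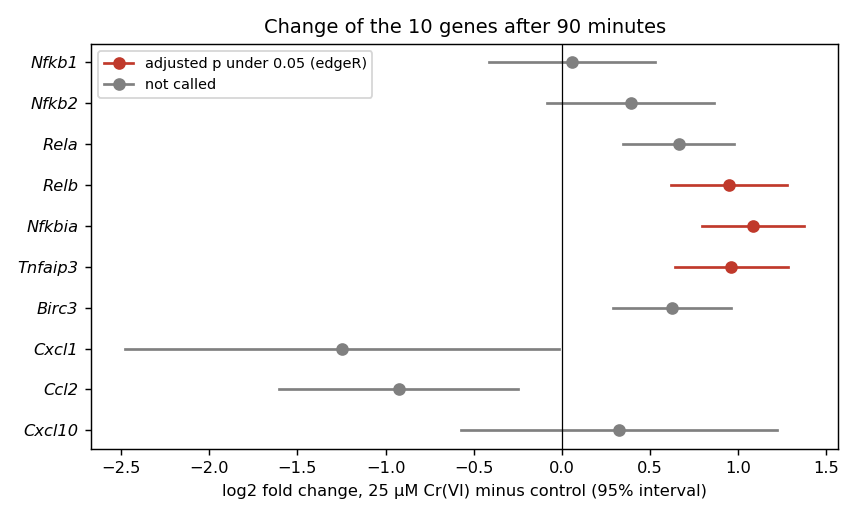
Log2 fold change of the 10 genes between 25 µM Cr(VI) and control (x axis) with the 95% interval of the edgeR fit as horizontal lines. Relb, Nfkbia and Tnfaip3, in red, have an adjusted p under 0.05, and the widest intervals belong to Cxcl1 (-2.48 to -0.013) and Cxcl10 (-0.57 to 1.22).

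None of the 3 chemokine genes passed the test. Cxcl1 (chr5:90891245-90893121, plus strand), a neutrophil attractant, measured 19.8 and 50.6 CPM in the treated libraries and 84.3 and 82.4 CPM in the controls. Both treated libraries were lower, and treated library 2 held 2.55 times the level of library 1. The log2 fold change was -1.25 (SE 0.46, adjusted p = 0.160, edgeR), with a 95% interval from -2.48 to -0.013. Fitted by edgeR without treated library 1 the value was -0.71, and without treated library 2 it was -2.07. Without control library 1 or 2 the adjusted p by edgeR was 0.0760 and 0.0715. With DESeq2 the adjusted p was 0.0167, and over the alternatives with all 4 libraries it ranged from 3.91e-08 to 0.166.

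Ccl2 (chr11:82035577-82037452, plus strand), which attracts monocytes, gave the same picture with a smaller spread: 36.8 and 59.5 CPM in the treated libraries and 92.5 and 90.4 CPM in the controls. Treated library 2 held 1.62 times the level of library 1. Ccl2 had a log2 fold change of -0.93 (SE 0.25, 95% interval -1.60 to -0.25, adjusted p = 0.105, edgeR). It was -0.61 without treated library 1 and -1.31 without treated library 2. Without control library 1 or 2 the adjusted p by edgeR was 0.229 and 0.202. The adjusted p ranged from 0.000108 to 0.110 over the alternatives with all 4 libraries and was 0.0146 with DESeq2.

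Cxcl10 (chr5:92346638-92348889, minus strand), a chemokine for T cells that also responds to interferon, was the least expressed of the 10 genes. It measured 2.96 and 5.11 CPM in the treated libraries (100 and 148 reads) and 2.99 and 3.43 CPM in the controls (104 and 134 reads). The groups overlapped. The log2 fold change of 0.33 (SE 0.34, 95% interval -0.57 to 1.22, adjusted p = 0.547, edgeR) turned to -0.13 without treated library 2 and was 0.68 without treated library 1. Cxcl10 lies within the gene Art3 on the opposite strand, with which it shares no exonic base. All 3 chemokine genes were thus higher in treated library 2 than in treated library 1, at ratios of 1.62 to 2.55. Rela, Relb, Nfkbia and Tnfaip3 were higher there too, at ratios of 1.04 to 1.13. Nfkb1 and Nfkb2 were lower, at 0.745 and 0.742 of the level in library 1, and Birc3 was nearly level at 0.976.

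Genes around the 10 were taken from lists of the pathway and its targets. Of 8 tested genes among the other NF-κB subunits and inhibitors, none was called by edgeR (median log2 fold change 0.16). None had an unadjusted p under 0.05, beside 30.7% of all tested genes. The regulator Commd1 (0.17), the IκBβ gene Nfkbib (0.14) and the κB-Ras gene Nkiras2 (-0.13), the 3 with the highest counts, lay close to 0. Among 25 kinases and adaptors upstream of NF-κB, 2 rose and none fell past the threshold (median 0.12). Traf1, an adaptor of the TNF receptors and itself an NF-κB target, counted 79 and 71 reads in the treated libraries and 18 and 25 in the controls (log2 fold change 2.04, SE 0.28, adjusted p = 0.0405, edgeR). Map3k14, which encodes NIK, the kinase of the non-canonical branch in which Relb works, counted 1718 and 1181 against 665 and 858 reads (1.16, SE 0.17, adjusted p = 0.0445, edgeR). Map3k7, which encodes TAK1, stood at 0.10. Without control library 1 or 2 the edgeR calls were lost for Traf1 (adjusted p = 0.345 and 0.234) and Map3k14 (0.240 and 0.126), and for Map3k14 also with scaling by library size alone (0.0858). The 2 called genes are 8% of the 25, beside the 1.78% of all tested genes called higher. The IKK genes Chuk, Ikbkb and Ikbkg, picked with their values known, gave 0.064, 0.13 and -0.33 without passing the test.

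Across all tested genes, 2.85% were called lower and 1.78% higher. Of 10 tested receptors upstream of NF-κB, 1 fell and none rose (median -0.12). It was Il1rap, the shared chain of the IL-1 receptor, with 71 and 65 reads in the treated libraries against 224 and 239 in the controls (log2 fold change -1.53, SE 0.20, adjusted p = 0.0391, edgeR), a call lost without control library 1 (0.257) or 2 (0.211). Tnfrsf12a and Ltbr, the receptors with the highest counts, stood at 0.088 and 0.033. Of 12 ubiquitin editors none was called by edgeR, and the median was 0.16. An unadjusted p under 0.05 was reached by 2 of them (16.7%), beside 30.7% of all tested genes. Rbck1, a part of the linear ubiquitin ligase, stood at 0.52 (adjusted p = 0.0928, edgeR), and the ubiquitin ligase Itch at 0.45 and the A20 adaptor Tax1bp1 at 0.27 did not pass the test either.

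Of 14 tested chemokine and cytokine targets, 2 fell (14.3%) and none rose (median -0.094), beside 2.85% and 1.78% of all tested genes. Ccl7, a monocyte attractant encoded beside Ccl2, counted 32 and 43 reads in the treated libraries against 449 and 463 in the controls (log2 fold change -3.35, SE 0.29, adjusted p = 0.0282, edgeR). Cxcl5, a neutrophil attractant like Cxcl1, counted 2602 and 1933 against 7748 and 8637 reads (-1.63, SE 0.13, adjusted p = 0.0282, edgeR). Both differed by far more than the spread within the groups, and both calls held with each control library left out in turn. Cxcl3 stood at -0.12. The cytokine genes Tnf, Il1b and Il6 had at most 11 reads in any library and were not tested.

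Of 22 other tested targets, 2 fell (9.09%) and none rose, beside 2.85% and 1.78% of all tested genes. The median of these targets was 0.0045. Sele, an adhesion molecule best known from endothelium, counted 5 and 3 reads in the treated libraries against 150 and 161 in the controls (log2 fold change -5.01, SE 0.32, adjusted p = 0.0282, edgeR). Saa3, an acute-phase gene, counted 93 and 92 against 318 and 347 reads (-1.60, SE 0.19, adjusted p = 0.0350, edgeR), a call lost without control library 1 (0.156) or 2 (0.137). Bcl2l1, which encodes the survival protein Bcl-xL, stood at 0.14. An unadjusted p under 0.05 was reached by 12 of the 22, of which 7 were higher and 5 lower, beside 30.7% of all tested genes. Among the 7, picked with their values known, the complement genes Cfb (0.97, adjusted p = 0.0533) and C3 (0.76, adjusted p = 0.0703) and the transcription factor Irf1 (0.74, adjusted p = 0.0606) did not pass the edgeR threshold. In the chemokine and cytokine list 5 of 14 had such a p, 2 higher and 3 lower.

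Of 15 interferon-stimulated genes, a list kept because Cxcl10 also responds to interferon, 4 fell and none rose (median -1.46). Irf7, a transcription factor of the interferon response, counted 82 and 56 reads in the treated libraries against 483 and 618 in the controls (log2 fold change -2.76, adjusted p = 0.0282, edgeR). The antiviral genes Oas1a (-1.68, adjusted p = 0.0319), Isg15 (-1.98, adjusted p = 0.0391) and Rsad2 (-2.25, adjusted p = 0.0465) fell too by edgeR, with Oas1a uncertain because the mouse Oas1 genes are close copies that can share reads. The edgeR call of Isg15 was lost without control library 2 (adjusted p = 0.0956) and with scaling by library size alone (0.0543), and that of Rsad2 without control library 1 (0.153) or 2 (0.195) and with that scaling (0.0584). None of the 11 genes of this list with a promoter window held a κB consensus, beside 5.14% of all genes with a window. With 11 genes this is near that share. Among genes with a window, the consensus was held by 4 of 7 subunits and inhibitors, 3 of 21 kinases and adaptors and 3 of 10 receptors. It was held by 4 of 8 ubiquitin editors, 5 of 13 chemokine and cytokine targets and 5 of 22 other targets. Together the 7 lists held 122 genes, of which 106 were tested, 2 rose (1.89%) and 9 fell (8.49%), with a median of 0.021, beside 1.78% and 2.85% of all tested genes. Of the 9 that fell, 4 were these interferon-stimulated genes, which were not listed as NF-κB genes.

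**Figure D3:**
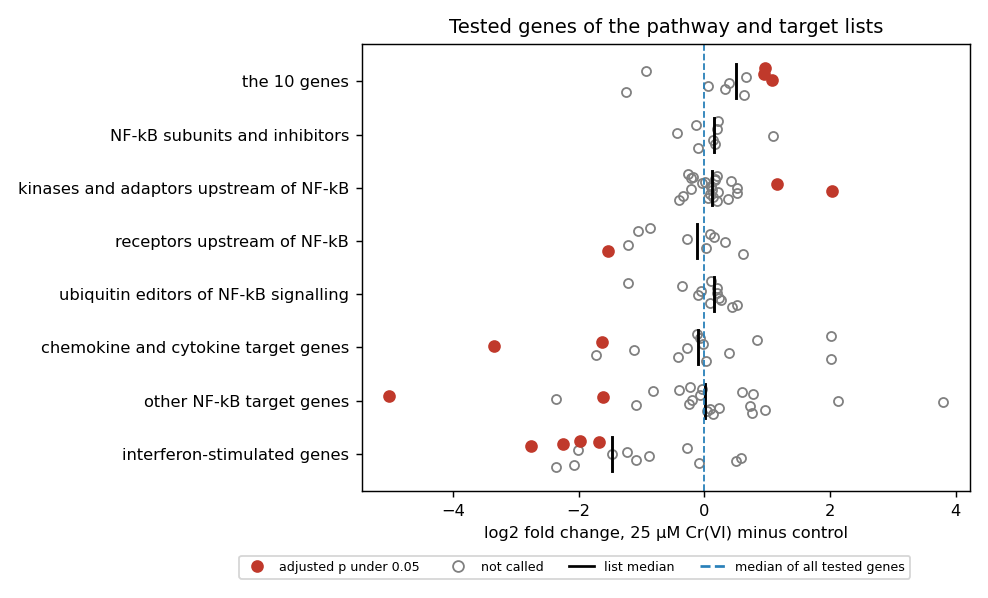
Log2 fold change (x axis) of each tested gene of the 10 and of the 7 pathway and target lists, with called genes filled red, list medians as black ticks and the median of all tested genes dashed. The median of the 10 genes is 0.51 and that of the interferon-stimulated genes is -1.46, and the called genes of the target lists all lie to the left of 0.

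Markers of other cell types were measured beside these results, where 1.78% of all tested genes were called higher and 2.85% lower. Of the 10 leukocyte markers 5 were tested and 1 rose, Cd74 (30 and 23 reads against 2 and 3, log2 fold change 3.57, adjusted p = 0.0327, edgeR). Cd14 (-0.037, at least 1262 reads per library), Csf1r (-0.41, at least 1098), Cd68 (0.75, at least 172) and Lyz2 (-0.75, at least 92) did not pass the test. Ptprc, Itgam, Adgre1 and Tyrobp had at most 5 reads. The summed level of the leukocyte list was 109 to 115 CPM in the treated libraries and 120 to 123 CPM in the controls. Of 8 fibroblast and endothelial markers 4 were tested and 2 rose: Dcn (log2 fold change 1.16, adjusted p = 0.0362) and Pecam1 (2.03, adjusted p = 0.0438) by edgeR, with Col1a1 at 0.54. Pdgfrb (0.37) did not pass the test. Dcn, Col1a1 and Pdgfrb had at least 15152, 7066 and 1207 reads in every library, and Pecam1 at most 65. Cdh5 was at 0 in all 4 libraries, and Col1a2 and Lum had at most 5 reads. The summed level of this list was 1276 to 1406 CPM in treated and 686 to 698 CPM in control libraries. The summed level of the 13 hepatocyte and hepatoma markers was 7459 to 8756 CPM in treated and 4227 to 4365 CPM in control libraries, where 10 were tested, Alb (1.96, adjusted p = 0.0317) and Ttr (2.46, adjusted p = 0.0332) rose by edgeR, none fell and Trf stood at 0.67. Without control library 1 or 2 the edgeR calls of the 5 markers that rose were lost. The part of these shifts in the changes of the NF-κB genes was not tested. All libraries were of the Hepa-1 line. In bulk RNA, a change in the share of cells that express a marker and a change in its RNA per cell cannot be told apart.

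The FAIRE peak lists give regions called open in treated cells against their control, 2945 for 25 µM Cr(VI) and 860 for 0.5 µM Cr(VI), each with a score of 10 times the −log10 of the MACS p-value. The paper also reports regions that were open in control and closed in treated cells. The lists used here do not hold those regions, so closing at the 10 genes was not examined. There was 1 library per condition, so no peak has a replicate check. With a distance of at most 10 kb from the gene, 1 of the 10 genes had a peak of the 25 µM list and none had a peak of the 0.5 µM list. Among the 23281 genes of the count table with a position, the shares were 9.24% and 2.97%. The 10 genes were thus near the share of all genes in both lists.

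The single peak lay in Nfkb1, at chr3:135690627-135690770, 144 bp wide, with a score of 82.0. It fell in an intron, 545 bp from the nearest annotated start, which is also one of Nfkb1, and 1270 bp inside the outermost start of the gene. Its sequence (plus strand) is shown because it was the only listed region within 10 kb of any of the 10 genes, and it held neither a κB consensus nor the AP-1 motif.
Nfkb1 peak: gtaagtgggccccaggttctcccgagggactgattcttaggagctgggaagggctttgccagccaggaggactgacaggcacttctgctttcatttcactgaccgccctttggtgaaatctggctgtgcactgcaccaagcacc
The RNA of Nfkb1 overlapped between the groups, while Nfkbia, Tnfaip3 and Relb, the genes whose RNA rose, had no peak of either list within 10 kb. Over the lists as a whole, the κB consensus was present in 1.87% of the 25 µM peaks and 6.51% of the 0.5 µM peaks, and the AP-1 motif in 14.4% and 29.1%, where peaks of the 0.5 µM list were wider (median 513.5 bp against 120 bp).

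Farther out, Tnfaip3 had the most peaks within 100 kb. In the 25 µM list 3 lay within 100 kb, at 37818 and 53123 bp upstream and 46957 bp downstream of the gene, with scores of 54.2, 51.6 and 62.3. A peak of the 0.5 µM list lay between the upstream pair, 40864 bp from the gene (chr10:19056274-19056843, score 82.8), and 99.1% of its bases are repeat-masked in the reference. None of these 4 held a κB consensus or the AP-1 motif. The share of all genes with a peak within 100 kb was not computed. Within 50 kb it was 20.9% for the 25 µM list and 6.34% for the 0.5 µM list. For Nfkb1 a further peak of the 25 µM list lay 39411 bp upstream. The nearest peak of the 25 µM list to Nfkb2 lay 38770 bp upstream in an intron of Gbf1, that of Rela 55242 bp upstream and that of Cxcl1 58572 bp downstream in Mthfd2l. For Nfkbia, Ccl2 and Cxcl10 the nearest peak of the 25 µM list was 1089995, 905336 and 1201359 bp away, and for Relb 346228 bp.

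Of the 11 pairs of regions that overlapped between the lists, 1 lay within 500 kb of any of the 10 genes, namely Birc3, 201276 bp upstream of that gene and 31660 bp from the nearest start, which belongs to Cfap300. The 25 µM peak at chr9:8074481-8074589 (109 bp, score 59.6) lay wholly inside the 0.5 µM peak at chr9:8074307-8074747 (441 bp, score 51.8). Its sequence (plus strand) is shown as a region found open under both regimens, and it held neither motif.
Birc3 shared region: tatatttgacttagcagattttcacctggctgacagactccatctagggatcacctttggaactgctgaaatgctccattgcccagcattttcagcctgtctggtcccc
Cfap300 counted 74 and 76 reads in the treated RNA libraries and 41 and 44 in the controls (log2 fold change 1.06, SE 0.26, adjusted p = 0.0883, edgeR).

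**Figure D4:**
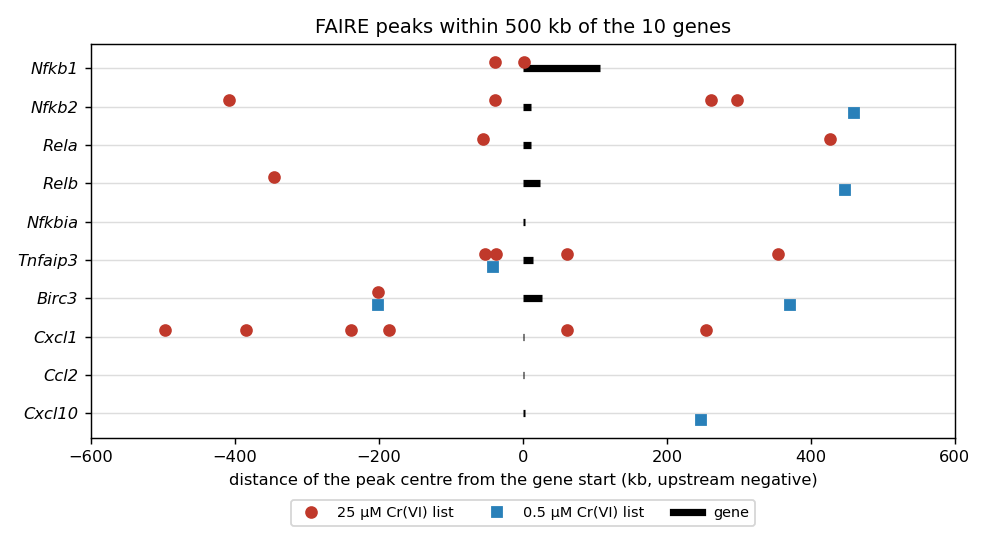
Position of FAIRE peaks within 500 kb of each of the 10 genes, as the distance of the peak centre from the start of the gene in kb (upstream negative), with the gene as a black bar. Only Nfkb1 has a peak in the gene, Tnfaip3 has peaks of both lists about 40 kb upstream, Birc3 has overlapping peaks of both lists 201276 and 201102 bp upstream, and Nfkbia and Ccl2 have none in the range.

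How far each estimate moved with the processing differed between the genes. Over all 9 alternatives, the log2 fold change stayed between 0.97 and 1.12 for Nfkbia, and it stayed above 0 for Relb, Tnfaip3, Rela, Birc3 and Nfkb2 and below 0 for Cxcl1 and Ccl2. Cxcl1 ranged from -2.07 to -0.71, both ends coming from leaving out a treated library. Nfkb1 and Cxcl10 changed sign.

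**Figure D5:**
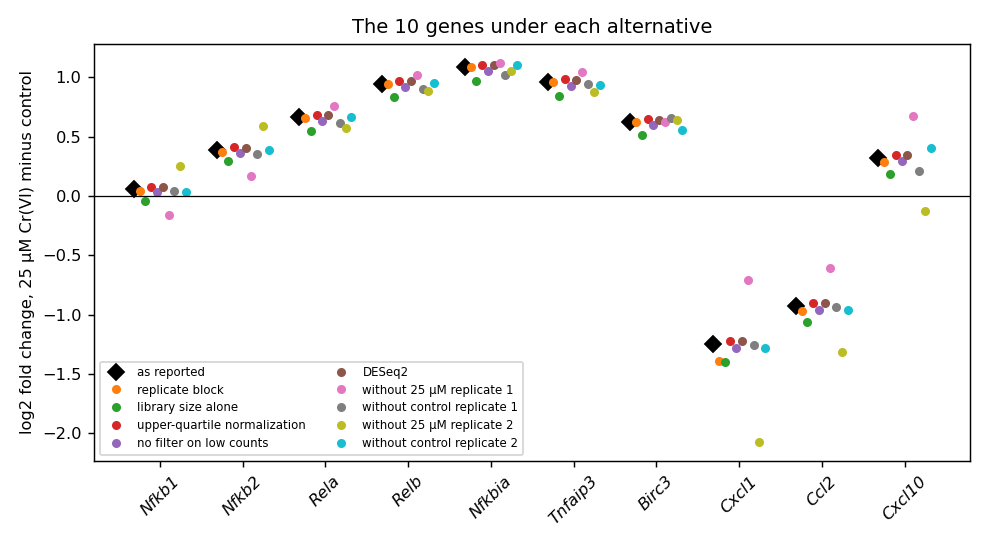
Log2 fold change of the 10 genes (y axis) as reported (black diamonds) and under each alternative (coloured points). The points of Nfkbia, Relb and Tnfaip3 stay close together above 0, those of Cxcl1 and Ccl2 are spread below 0 by the choice of treated library, and those of Nfkb1 and Cxcl10 fall on both sides of 0.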

How the data were processed

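RNA-seq was deposited for 4 libraries and FAIRE-seq for 4, all of Hepa-1 cells. The counts were made by the authors, who aligned reads to mm10 with TopHat and deposited whole read counts per Entrez gene without normalization. The counting tool, its annotation and its use of strand are not given in the sources used here. Peak scores were deposited as the authors' MACS output after BWA alignment to mm10, each 10 times the −log10 of the p-value of 1 treated against 1 control library. Peaks carry no read counts, so their depth is unknown. The submitters' processing notes also name CASAVA 1.8, bcl2fastq and DESeq.

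The quasi-likelihood test of edgeR was run on genes passing filterByExpr (edgeR 4.0.16, R 4.3.3, TMM, two-sided, Benjamini-Hochberg over all tested genes, threshold 0.05, no block), after the steps were tested on simulated data. SE values are the log2 fold change divided by the square root of the F statistic. The biological coefficient of variation was 0.193. The fit and the simulated data gave both groups the same spread per gene, so they do not reflect the wider spread of the treated pair. Genes were set against peaks by RefSeq positions of GRCm38.p6, which 122 genes of the table lack, with a distance of at most 10 kb from the gene. Pathway levels were described by counts and medians, with no set test. Alternatives were DESeq2 1.42.0, a replicate block, library size alone, upper-quartile normalization, no filter, each library left out, other distances (1 and 50 kb), peaks with a score of at least 100, and a κB consensus with any base at its sixth place. Python 3.11.15, pandas 2.3.3, pysam 0.24.0 and matplotlib 3.10.9 were used.

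The 10 genes, the lists and the tests were chosen with earlier results of these data known. Named in the text were the 10 genes; from each list up to 5 called genes by adjusted p and, where fewer than 3 were called, those of highest mean log2 CPM until 3 were named; genes overlapping the 10; and the gene whose start was nearest to a peak at them. Any other gene was picked with its values known, also where this is not stated beside it.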

Additional observations from a re-analysis of the deposited data

How the results depend on the processing

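Precision was limited by 2 libraries per group in RNA-seq and by 1 in FAIRE-seq. Scaling by library size alone shifted the median of all tested genes to -0.11, from -0.0047. Of 369 values over 41 named genes and 9 alternatives, 284 kept direction and side of the threshold, 40 passed it, 31 no longer passed it and 14 changed sign. Where a cause is not stated below, the cause was not tested.

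Of the 10 genes, 3 were called higher and 0 lower. DESeq2 called 5 higher and 2 lower. Of the 106 tested list genes, 2 higher and 9 lower became 10 and 20 with DESeq2, and 1 was higher by library size alone. Of all genes, 243 higher and 388 lower became 1057 and 1016 with DESeq2, and 141 were higher by library size alone. The replicate block called 2 of the 10 genes lower (Cxcl1 and Ccl2) and 4 higher, 11 list genes higher and 23 lower, and 1397 of all genes higher and 1572 lower. The shared replicate numbers do not establish a pairing: no label ties same-numbered libraries together, there are only 2 pairs, and their deviations correlated at 0.118. Leaving out 1 library gave 0 to 7 of the 10 genes called higher and 0 to 3 lower, 2 to 45 list genes higher and 8 to 45 lower, and 104 to 5407 of all genes higher and 183 to 5588 lower. The high counts came without a treated library, where the spread is that of the close control pair alone, and the low counts without a control.

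Of the 10 genes, 3 had a peak of the 25 µM list within 50 kb, beside 20.9% of all genes, and 0 with a score of at least 100. For the 0.5 µM list 1 did within 50 kb, beside 6.34%. At 1 kb the counts were 1 and 0, and the wider κB consensus left 5 genes.

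By library size alone the log2 fold change turned to -0.039 for Nfkb1, -0.018 for Map3k7, -0.036 for Tnfrsf12a and -0.080 for Ltbr. With 1 library left out it ranged from -0.16 to 0.25 for Nfkb1, -0.13 to 0.68 for Cxcl10, -0.17 to 0.45 for Commd1, -0.016 to 0.30 for Nfkbib, -0.022 to 0.23 for Map3k7, -0.096 to 0.26 for Tnfrsf12a, -0.017 to 0.054 for Ltbr, -0.50 to 0.19 for Cxcl3, -0.038 to 0.31 for Bcl2l1 and -0.40 to 0.25 for Cd14.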

Other observations

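The genes named here did not pass the edgeR threshold and were picked with their values known. Mmp9, a secreted protease, counted 67 and 144 reads in the treated libraries and 12 and 6 in the controls (log2 fold change 3.80, adjusted p = 0.0589, edgeR). Gadd45b, a stress gene, counted 599 and 1204 against 234 and 269 reads (2.12, adjusted p = 0.0729, edgeR). Ptgs2, which encodes cyclooxygenase-2, counted 141 and 490 against 1821 and 2158 reads (-2.36, adjusted p = 0.112, edgeR). The cytokine gene Csf2 counted 31 and 563 against 87 and 98 reads (2.02, adjusted p = 0.358, edgeR), so its treated libraries lay on either side of the controls. Nfkbie, which encodes the inhibitor IκBε, measured 39.0 and 16.3 CPM in the treated libraries against 13.8 and 12.2 CPM in the controls (1.09, adjusted p = 0.187, edgeR), with treated library 1 far above the other 3 libraries.

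Of the genes on the 7 pathway and target lists, peaks of the 25 µM list lay within the genes Nfkbie, Il1rap and Zc3h12a and within 10 kb of Chuk (640 bp), Irf1 (8034 bp) and Plaur (9351 bp). Peaks of the 0.5 µM list lay within Tbk1 and Itch. Il1rap is the called gene among these genes, with a log2 fold change of -1.53, and a link of its peak to its RNA was not tested. The lists hold 122 genes. Among all genes with a position, 9.24% had a peak of the 25 µM list within 10 kb and 2.97% one of the 0.5 µM list. The list genes with a peak did not exceed these shares.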
